A study of Mus musculus with 6 samples.

Results

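The plasminogen activation system was examined in N9 microglia through 9 genes of the deposited count table, out of 54532 genes in all, each matched by its exact symbol. They are the urokinase receptor *Plaur*, the activators *Plau* (urokinase) and *Plat* (tissue plasminogen activator), the inhibitors *Serpine2* (protease nexin-1) and *Serpinb2* (plasminogen activator inhibitor 2), the plasminogen receptor *Plgrkt*, and 3 genes of the neighbouring clotting system, *F3* (tissue factor), *F10* (coagulation factor X) and *Thbd* (thrombomodulin). N9 is an immortalized microglial line derived from mouse brain. The 3 LPS libraries came from N9 cells given lipopolysaccharide (LPS, an outer membrane component of gram-negative bacteria) at 1 µg/ml for 6 h, and the 3 control libraries came from untreated N9 cells. All cells were grown in RPMI 1640 with fetal bovine serum and antibiotics. No source says whether the replicates were separate cultures, so p-values measure the spread between these libraries only, which may be technical.

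Plasminogen circulates as an inactive precursor. Urokinase and tissue plasminogen activator cut it to plasmin, a protease that dissolves fibrin and cleaves matrix proteins and growth factor precursors. The urokinase receptor, a protein anchored to the membrane by glycosylphosphatidylinositol, holds urokinase at the cell surface, whereas serpins block the activators. In the clotting cascade, tissue factor binds factor VII to activate factor X, and thrombomodulin redirects thrombin toward activation of protein C. Macrophages and microglia are known sources of urokinase and its receptor.

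LPS-stimulated N9 microglia had more *Plaur*, *F10* and *Plat* RNA and slightly less *Plau* RNA than control cells, whereas *Plgrkt* did not pass the test. The *Plat* call, on few counts, did not hold in every fit. *Plaur* was 2.86-fold, *F10* 2.33-fold and *Plat* 2.11-fold higher with LPS, and *Plau* was 15.5% lower. The other 4 genes, *Serpine2*, *Serpinb2*, *F3* and *Thbd*, had between 0 and 6 counts in each library. Levels are given as CPM, the count scaled to a common library size after TMM normalization, as mean ± SD with n = 3 libraries. Adjusted p-values are from edgeR's quasi-likelihood test over the 12296 genes that passed its low-count filter.

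**Figure D1:**
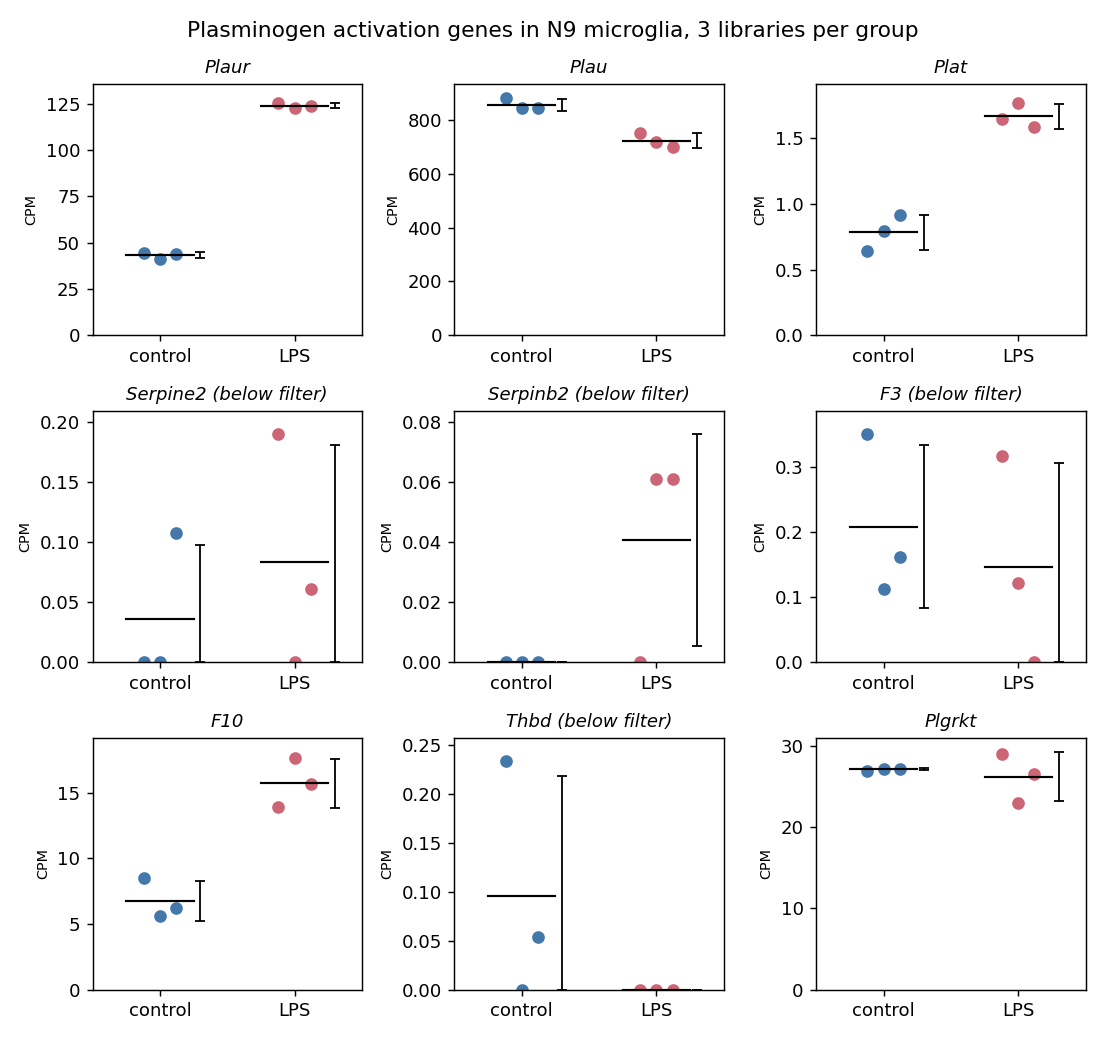
CPM of each of the 9 genes (vertical axes, each from 0) in the 3 control (blue) and 3 LPS (red) libraries, with the group mean as a line and the SD as a bar at its side, cut off at 0. *Plaur*, *Plat* and *F10* lie higher in every LPS library and *Plau* lower, while the 4 genes below the filter reach at most 0.35 CPM.

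Of the 9 genes, 5 passed the low-count filter, each with counts above its limit in both groups. At an adjusted p under 0.05, 3 of the 5 were up-regulated, against 18.7% of all tested genes, and 1 was down-regulated, against 15.7%. With DESeq2, and in 3 of the 6 fits that left out a library, 2 were up-regulated, without *Plat*. A differentially expressed gene (DEG), by the thresholds of the study, also has a log2 fold change beyond 1.5 in size, and 1 of the 5 was an up-regulated DEG, against 2.4% of all tested genes. All 3 LPS libraries lay above all 3 control libraries for *Plaur*, *Plat* and *F10*, as they did for 23.7% of tested genes, and below them for *Plau*, as they did for 21.5%. The sequences below show the start regions of 3 of the members, and the values follow by role, from receptor and activators to inhibitors and clotting factors.

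RefSeq start regions on GRCm38.p6, each with 250 bases before the start and 50 bases from the start on, were at hand for 6 of the 9 genes. Those of *Plaur* and *F10* are printed because these genes rose with LPS, and that of *F3* because its window also holds AP-1 letters although *F3* was barely counted. The *Plaur* window lies at chr7:24462233-24462532 on the plus strand, the *F10* window at chr8:13037058-13037357 on the plus strand and the *F3* window at chr3:121723287-121723586 on the plus strand. Capitals mark the AP-1 motif TGANTCA, in which N is any base and which reads the same on both strands.

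Plaur: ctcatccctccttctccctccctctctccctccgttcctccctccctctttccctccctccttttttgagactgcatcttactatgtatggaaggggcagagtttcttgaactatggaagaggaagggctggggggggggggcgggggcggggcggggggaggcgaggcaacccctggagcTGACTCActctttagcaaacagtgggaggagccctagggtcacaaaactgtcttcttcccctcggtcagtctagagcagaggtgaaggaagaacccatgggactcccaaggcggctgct

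F10: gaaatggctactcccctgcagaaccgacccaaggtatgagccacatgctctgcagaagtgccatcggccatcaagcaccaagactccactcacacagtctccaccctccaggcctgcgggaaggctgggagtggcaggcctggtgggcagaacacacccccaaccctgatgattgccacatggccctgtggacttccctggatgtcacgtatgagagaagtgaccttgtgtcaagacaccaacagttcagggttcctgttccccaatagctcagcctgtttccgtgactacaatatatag

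F3: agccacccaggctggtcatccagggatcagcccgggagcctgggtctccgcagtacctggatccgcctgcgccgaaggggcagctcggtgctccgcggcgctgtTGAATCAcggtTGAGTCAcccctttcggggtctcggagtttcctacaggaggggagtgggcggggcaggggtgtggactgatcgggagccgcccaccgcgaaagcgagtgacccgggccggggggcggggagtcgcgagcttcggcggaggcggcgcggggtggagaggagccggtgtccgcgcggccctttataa

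*Plaur* held 1 AP-1 match, TGACTCA, whose first base lies at -69 from the start. *F3* held 2, TGAATCA at -146 and TGAGTCA at -135, and *F10* held none. Both overlapping windows of *Serpinb2* held the same match, so that AP-1 letters were in 4 of the 7 windows of members, beside 7.81% of the 32851 windows of all genes. The kappa B motif, searched on both strands, was in 0 of the 7 windows and in 8.46% of all windows. *Plaur* also held 3 GC box matches (GGGCGG, both strands, the nearer pair overlapping by 1 base) and 1 match of the PU.1 core GAGGAAG, which were in 35.7% and 13.6% of all windows. The cyclic AMP response element TGACGTCA was in no member's window and in 1.79% of all windows. The letters TATAAA, searched on both strands and present in 13.6% of all windows, were found before the start for *Serpinb2* and, for *F3*, only on the minus strand past the start, where the printed strand reads TTTATA. *F10* held none of the 6 motifs. These matches describe letters only.

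*Plaur* (ENSMUSG00000046223), which encodes the urokinase receptor, lies on chromosome 7 of GRCm38 from 24462484 to 24475968 on the plus strand. It was counted 763, 728 and 818 times in control and 1975, 2011 and 2037 times in LPS replicates 1 to 3. The groups lay far apart and the libraries within each group close together. *Plaur* rose from 43.3 ± 1.76 to 124 ± 1.27 CPM (log2 fold change 1.52, SE 0.05, adjusted p = 3.9e-12 by edgeR). The 95% interval of the change ran from 1.41 to 1.62 on the log2 scale and so includes the DEG threshold of 1.5. Without control replicate 2, and without control replicates 2 and 3 together, the change was 1.48 and *Plaur* was no longer a DEG, and glmTreat, which asks whether the change exceeds 1.5, gave an adjusted p of 1. Its change lay at the percentile 97.6 of all tested genes.

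By Euclidean distance between centred log2 CPM over the 6 libraries, the tested genes with the pattern most like that of *Plaur* were *Oas1a*, *Sod2* and *Nfkb2*. Their distances were 0.0905, 0.0954 and 0.0988, and each had a log2 fold change of 1.48. *Oas1a* encodes an interferon-induced oligoadenylate synthetase, *Sod2* the mitochondrial superoxide dismutase and *Nfkb2* an NF-kappa B subunit. With libraries in 2 groups, this distance mainly reads the size of the LPS change.

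*Plau* (ENSMUSG00000021822), on chromosome 14 from 20836660 to 20843385 on the plus strand, encodes urokinase. It was counted 15091, 14884 and 15687 times in control and 11872, 11755 and 11502 times in LPS replicates 1 to 3. Every LPS library was below every control library, although the shift was small. *Plau* fell from 856 ± 21.4 to 723 ± 26.6 CPM (log2 fold change -0.24, SE 0.04, adjusted p = 1.1e-04 by edgeR). Leaving out any 1 library kept its log2 fold change between -0.27 and -0.22. *Plau* was the most abundant member in every library, at 0.0872% to 0.091% of all control counts and 0.0679% to 0.0726% of all LPS counts. Per length, at 362 ± 9.06 CPM per kb in control cells, it ranked 135 of the 12296 tested genes by mean level over all libraries.

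*Plat* (ENSMUSG00000031538), on chromosome 8 from 22757727 to 22782844 on the plus strand, encodes tissue plasminogen activator, which is best known from endothelium and neurons. It was counted 11, 14 and 17 times in control and 26, 29 and 26 times in LPS replicates 1 to 3, so that the groups did not overlap but rested on few reads. *Plat* rose from 0.783 ± 0.137 to 1.67 ± 0.0941 CPM (log2 fold change 1.08, SE 0.32, adjusted p = 0.0158 by edgeR). This call was lost with DESeq2 (adjusted p = 0.0816) and in 3 of the 6 fits that left out a library, without control replicate 1 (0.072), control replicate 2 (0.0505) and LPS replicate 2 (0.065).

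Markers of endothelium moved in both directions beside *Plat*. *Kdr*, a receptor for vascular endothelial growth factor, was counted 2, 2 and 8 times in control and 13, 19 and 21 times in LPS replicates 1 to 3 (log2 fold change 2.24, adjusted p = 0.00355 by edgeR, with the filter passed through the LPS libraries only). *Cdh5* (VE-cadherin) had 5, 2 and 5 counts against 10, 13 and 9. *Cldn5*, *Emcn* and *Robo4* were at 0 counts in all 6 libraries, and *Tek*, *Tie1* and *Esam* had 0 or 1 count in each. *Flt1* fell from 67.7 ± 3.47 to 53.3 ± 3.52 CPM (adjusted p = 4.6e-04 by edgeR) and made up nearly all of the summed level of the 9 markers, 65.5 to 71.9 CPM in control and 52.9 to 59.2 CPM in LPS libraries, so that this sum does not describe the other 8. Of 5 neuronal markers, the tubulin gene *Tubb3* rose (58, 81 and 78 counts in control, 219, 179 and 231 in LPS, adjusted p = 7.3e-07 by edgeR). *Map2* fell (388, 383 and 432 against 252, 272 and 300 counts, adjusted p = 0.00221 by edgeR). The other neuronal markers, *Rbfox3*, *Snap25* and *Syt1*, had 0 to 6 counts in each library, and the 5 summed to 26.3 to 27.8 CPM in control and 27.8 to 32.3 CPM in LPS libraries. The part of either cell type in the *Plat* values was not tested, and in bulk RNA fewer cells of a type and less RNA per cell cannot be told apart.

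*Plgrkt* (ENSMUSG00000016495), on chromosome 19 from 29348599 to 29367390 on the minus strand, encodes a membrane receptor that binds plasminogen through a C-terminal lysine. It was counted 462, 480 and 505 times in control and 457, 377 and 437 times in LPS replicates 1 to 3. LPS replicate 2 was the lowest and LPS replicate 1 the highest in CPM, on either side of all control libraries. The level was 27.1 ± 0.128 CPM in control and 26.2 ± 3.01 CPM in LPS cells (log2 fold change -0.05, SE 0.09, adjusted p = 0.705 by edgeR). The 95% interval of the change, from -15.3% to 10.1%, bounds any difference.

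**Figure D2:**
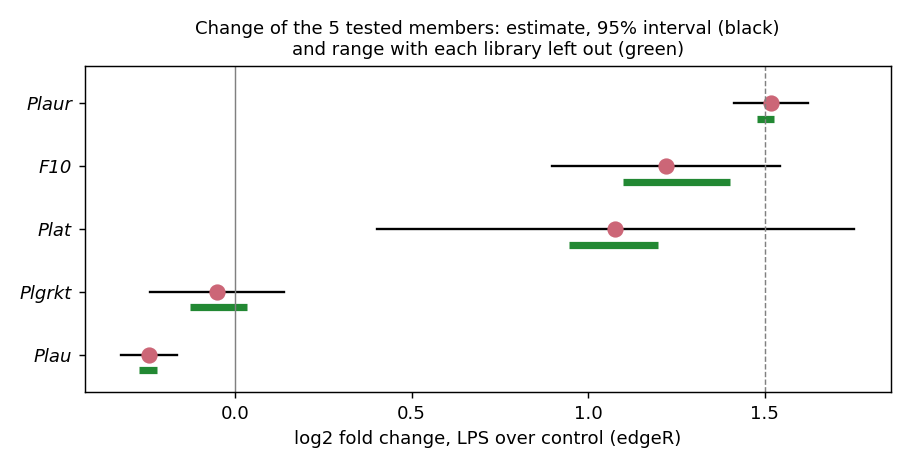
Log2 fold change of LPS over control (horizontal axis) for the 5 tested genes, with the edgeR estimate as a red point, its 95% interval in black and the range over the 6 fits that left out a library in green; the dashed line marks 1.5. The *Plaur* interval from 1.41 to 1.62 includes the dashed line, and the *Plat* interval, from 0.40 to 1.75, is the widest of the 5.

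Per kb of gene length, the order of the tested members in control cells was *Plau*, *Plaur*, *Plgrkt*, *F10* and *Plat*, with 16.5 ± 0.671 CPM per kb for *Plaur*, 7.14 ± 0.0337 for *Plgrkt*, 2.47 ± 0.552 for *F10* and 0.126 ± 0.0219 for *Plat*. No neighbours in that order overlapped in control libraries. In LPS cells the levels per kb were 306 ± 11.3 for *Plau*, 47.4 ± 0.486 for *Plaur*, 6.89 ± 0.792 for *Plgrkt*, 5.76 ± 0.686 for *F10* and 0.267 ± 0.0151 for *Plat*. There *Plgrkt* and *F10* overlapped, with the highest *F10* library at 6.45 and the lowest *Plgrkt* library at 6.05 CPM per kb. *Plat* stood at the percentile 2.5 of tested genes by level, against 98.9 for *Plau* and 84.8 for *Plaur*.

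Urokinase RNA exceeded that of its receptor in every library, by a margin that differed between groups. The ratio of *Plau* to *Plaur* per kb was 21.9, 22.6 and 21.2 in control and 6.65, 6.46 and 6.24 in LPS replicates 1 to 3. The ratio of *Plau* to *Plat*, which rests on the few *Plat* counts, was 3617, 2803 and 2433 in control and 1204, 1069 and 1166 in LPS libraries. Neither ratio overlapped between groups. The ratios are given as descriptions, with no test run. They compare RNA levels, not proteins or activity.

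**Figure D3:**
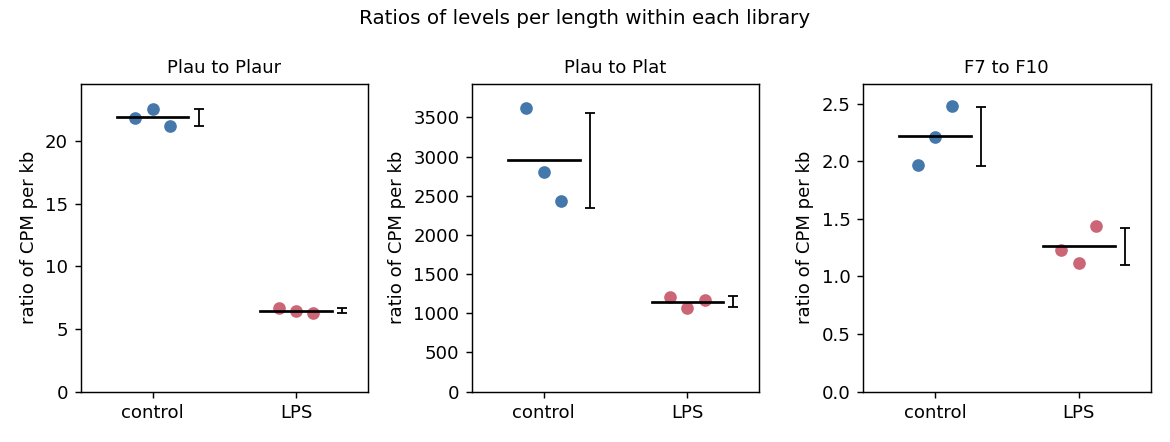
Ratios of CPM per kb (vertical axes, from 0) of *Plau* to *Plaur*, *Plau* to *Plat* and *F7* to *F10* in each control (blue) and LPS (red) library, with the group mean as a line and the SD as a bar. For all 3 ratios every LPS library lies below every control library, and the mean of *Plau* to *Plaur* is 21.9 in control and 6.45 in LPS cells.

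Among the inhibitors that are members, *Serpine2* (ENSMUSG00000026249, chromosome 1, 79794197 to 79861180, minus strand), an inhibitor of thrombin, urokinase and tissue plasminogen activator, had 0, 0 and 2 counts in control and 3, 0 and 1 counts in LPS libraries. *Serpinb2* (ENSMUSG00000062345, chromosome 1, 107511423 to 107535478, plus strand) had 0 counts in every control library and 0, 1 and 1 in the LPS libraries. *Serpinb2* overlaps *Serpinb10* on the same strand, which had 1 count in all 6 libraries together. All libraries of both genes were at or under 3 counts, which correspond to 0.161 to 0.19 CPM, so that no fold change is given. A difference was not detectable at this depth, and edgeR without the low-count filter gave adjusted p-values of 0.716 for *Serpine2* and 0.507 for *Serpinb2*. Several markers of fibroblasts, in which *Serpine2* is commonly found, differed more between libraries than between groups. The 3 tested had adjusted p-values of 0.267 to 0.602 by edgeR. Below the filter, *Pdgfra* had 1, 2 and 4 counts in control and 4, 6 and 9 in LPS replicates 1 to 3, while *Pdgfrb*, *Dcn* and *Lum* overlapped between groups. The 7 markers summed to 11.9, 0.454 and 7.91 CPM in control and 8.24, 0.854 and 0.974 CPM in LPS replicates 1, 2 and 3, and their part in these counts was not tested.

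*F10* (ENSMUSG00000031444) encodes coagulation factor X, the protease that turns prothrombin into thrombin and that is made mainly by liver. It lies on chromosome 8 from 13037308 to 13056676 on the plus strand. *F10* was counted 145, 99 and 115 times in control and 219, 289 and 257 times in LPS replicates 1 to 3, and the highest control library stayed below the lowest LPS library. It rose from 6.75 ± 1.51 to 15.7 ± 1.87 CPM (log2 fold change 1.22, SE 0.15, adjusted p = 1.5e-05 by edgeR). Leaving out any 1 library kept the change between 1.1 and 1.4. Its neighbour *F7*, which encodes factor VII, ends 1498 bases before *F10* begins, on the same strand. *F7* rose from 10.1 ± 1.47 to 13.4 ± 1.84 CPM (log2 fold change 0.42, SE 0.14, adjusted p = 0.0276 by edgeR), a call that DESeq2 did not make and that was lost without control replicate 2 or 3 or LPS replicate 2 or 3. The ratio of *F7* to *F10* per kb was 1.97, 2.21 and 2.48 in control and 1.23, 1.12 and 1.44 in LPS libraries.

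Hepatocyte transcripts were unevenly present between the libraries. The 15 hepatocyte markers summed to 5.25, 24.8 and 33.7 CPM in control replicates 1, 2 and 3 and to 5.13, 5.31 and 6.88 CPM in LPS replicates 1, 2 and 3. *Ambp* alone, at 74 to 124 counts, made up most of the low sums. *Alb* had 2, 155 and 292 counts in control and 2, 0 and 0 in LPS libraries. *F10* was lowest in control replicates 2 and 3, where *Alb* was highest. Without these 2 libraries the log2 fold change of *F10* was 0.89, beside 1.22 with all libraries, with the lone control library assumed to vary like the LPS libraries. Of 21 genes of the wider lists that liver is known to make, 15 had more counts in control replicates 2 and 3 than in the other 4 libraries together, and 12 of these had 0 counts in every LPS library. The share of all genes with this pattern was not computed. Of the 15, *Klkb1*, *Cpb2*, *F11* and *F13b* rested on only 1 or 2 counts. *Serping1*, at 6, 8 and 7 counts in control replicates 1 to 3, was spread over all control libraries. Among the 15, *Plg* (plasminogen) had 0, 4 and 9 counts in control and 0, 1 and 0 in LPS libraries, and the fibrinogen gene *Fgb* had 0, 15 and 16 against 0 in every LPS library. The 6 exceptions were *F5*, *F7*, *F9*, *Pros1*, *Serpinc1* and *Serpind1*, which were counted in all 6 libraries. The 21 genes were listed after their values were seen. The part of liver RNA in the *F10* values was not tested.

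**Figure D4:**
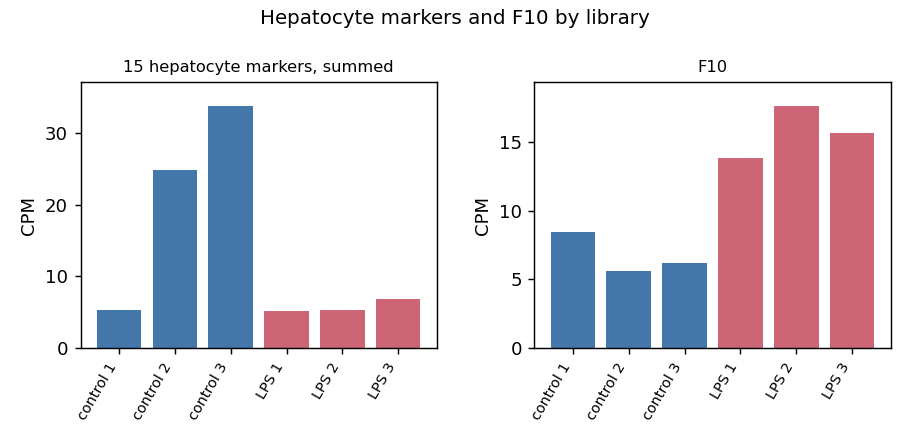
Summed CPM of 15 hepatocyte markers (left) and CPM of *F10* (right) in each control (blue) and LPS (red) library, as bars from 0. The markers are highest in control replicates 2 and 3, at 24.8 and 33.7 CPM, and *F10* is highest in the LPS libraries.

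*F3* (ENSMUSG00000028128, chromosome 3, 121723537 to 121735048, plus strand), which encodes tissue factor, the trigger of clotting, had 6, 2 and 3 counts in control and 5, 2 and 0 in LPS libraries. The groups overlapped. Pooled over libraries, 11 control counts correspond to 0.103 to 0.369 CPM and 7 LPS counts to 0.0579 to 0.297 CPM (95% Poisson intervals, counting error only). *Thbd* (ENSMUSG00000074743, chromosome 2, 148404466 to 148408188, minus strand) had 4, 0 and 1 counts in control and 0 in every LPS library. Control replicate 2 was at 0 like the LPS libraries, and the upper bound of the same interval for the pooled LPS libraries is 0.0759 CPM, within the control interval of 0.0304 to 0.219 CPM. Without the low-count filter, edgeR gave an adjusted p of 0.801 for *F3* and 0.258 for *Thbd*. DESeq2 gave no adjusted p for any of the 4 members below the filter.

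Of the other genes of the plasminogen system that were tested, 6 of 11 were higher with LPS. Of a list of 22, among them plasminogen-binding proteins, clearance receptors and the integrins that partner the urokinase receptor, 11 passed the filter. Of these 11, edgeR called 6 up-regulated, 0 down-regulated and 5 neither, where 18.7% of all tested genes were up-regulated and 15.7% down-regulated, with a median log2 fold change of 0.22 beside 0.004 for all tested genes. At an unadjusted p under 0.05, 1 gene, *Itgam*, was lower, and DESeq2 called 1 lower, *Vtn*, which is also made by liver. The list was written with earlier results of these data known.

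*Itga5*, the alpha subunit of the fibronectin receptor, was the 1 DEG of this list and rose from 229 ± 13.9 to 685 ± 20.1 CPM (log2 fold change 1.58, SE 0.05, adjusted p = 1.7e-12 by edgeR). *Anxa2* and *S100a10* encode the subunits of the annexin A2 complex, a cell-surface docking site for plasminogen and tissue plasminogen activator. *Anxa2* rose by 0.75 on the log2 scale (SE 0.04, adjusted p = 3.2e-10 by edgeR) and *S100a10* by 0.48 (SE 0.04, adjusted p = 1.8e-07 by edgeR). The integrin beta subunits *Itgb2* and *Itgb1* rose by 0.44 and 0.15 (SE 0.04 for each, adjusted p = 6.6e-07 and 0.00471 by edgeR). *Igf2r*, a clearance receptor, was the remaining gene called (log2 fold change 0.28, adjusted p = 0.0299 by edgeR), and it lost its call with DESeq2, with robust dispersion, with or without the filter, and without control replicate 1 or 3 or LPS replicate 2 or 3.

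Of 27 genes of coagulation and thrombin signalling, 11 passed the filter, and edgeR called 3 up-regulated, 1 down-regulated and 7 neither, with a median log2 fold change of -0.04. With few genes tested, these shares are not far from the 18.7% and 15.7% of all tested genes. *Procr*, the endothelial protein C receptor, rose from 52 ± 2.82 to 102 ± 4.95 CPM (log2 fold change 0.97, SE 0.06, adjusted p = 3.6e-09 by edgeR). *Serpind1*, which encodes the thrombin inhibitor heparin cofactor II, had 29, 26 and 43 counts in control and 64, 89 and 84 in LPS libraries and rose by 1.41 (SE 0.23, adjusted p = 2.3e-04 by edgeR). *F7* was the remaining up-regulated gene. *Pros1*, the gene of protein S, a cofactor of activated protein C, fell from 63.1 ± 1.96 to 47.8 ± 0.221 CPM (log2 fold change -0.40, SE 0.05, adjusted p = 3.1e-05 by edgeR). With all libraries and the low-count filter, no gene of this list was a DEG by edgeR. Up-regulated DEG were also absent by DESeq2 (0) and at an unadjusted p under 0.05 with the same fold threshold (0). Without the filter, edgeR called *Fga*, *Fgb* and *Fgg* lower, each at 0 counts in every LPS library. Without control replicate 3, or without LPS replicate 1, *Serpind1* was a DEG by edgeR. The thrombin receptor genes *F2r*, *F2rl1*, *F2rl2* and *F2rl3* had 0 to 7 counts in each library.

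**Figure D5:**
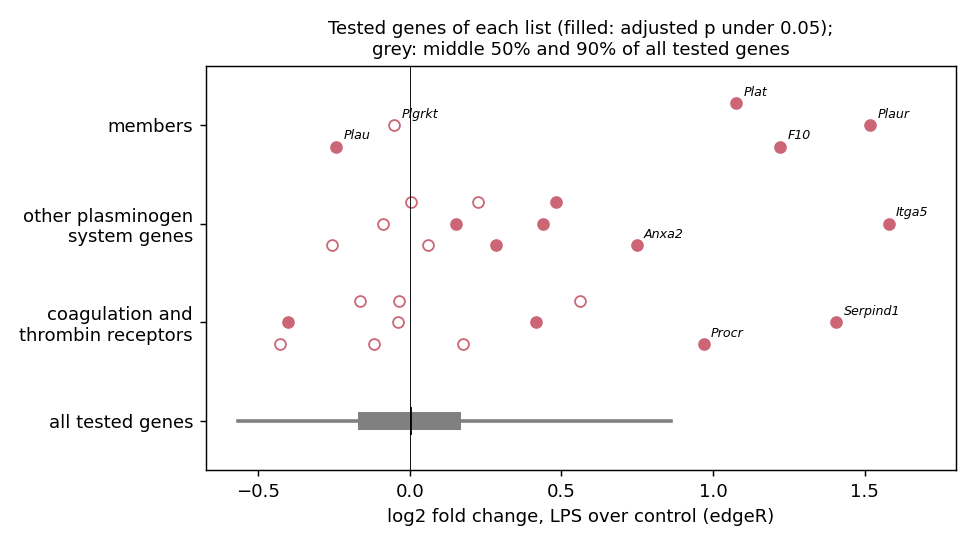
Log2 fold change of LPS over control (horizontal axis) of the tested genes among the members (5), the other plasminogen system genes (11) and the coagulation and thrombin receptor genes (11), filled where the adjusted p was under 0.05; the grey bar and line give the middle 50% and 90% of all tested genes. *Itga5* and *Plaur* lie farthest to the right, at 1.58 and 1.52, and *Plau* at -0.24.

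The 6 libraries held 16363767 to 17956772 counts. Of 15 markers of microglia and macrophages, 12 were tested, and *Csf1r* had 7140 to 8027 counts per library, *Cd68* 10267 to 11691 and *Spi1* 4804 to 7114. *P2ry12*, *Aif1* and *C1qa*, which mark microglia in brain, had only 3 to 6, 4 to 9 and 0 to 11 counts. By edgeR, 3 of the 12 rose and 3 fell, where 18.7% and 15.7% of all tested genes did. Of 6 astrocyte markers 3 were tested, of which 1 rose and 1 fell, and of the 5 neuronal markers 2 were tested, of which 1 rose and 1 fell. Of 5 megakaryocyte and platelet markers, only *Pf4* was tested (adjusted p = 0.369 by edgeR). The summed levels of the latter lists were 96 to 105 CPM, 26.3 to 32.3 CPM and 4.2 to 7.55 CPM over all libraries. *Gja1* and *Aldh1l1* made up nearly all of the astrocyte sum, while *Gfap*, *Aqp4* and *Slc1a3* had 0 to 10 counts in each library. *Map2* and *Tubb3* made up nearly all of the neuronal sum and *Pf4* most of the platelet sum. These sums do not describe the other markers. No pair of libraries within a group was as alike as sampling noise alone would make it (chi-square statistic per gene from 3.61 to 7.82).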

How the data were processed

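RNA-seq of N9 microglia in 6 libraries was grouped by the labels. The authors deposited read counts per gene, whole numbers without normalization, with a gene length in bases for each of 54532 genes. The submitters' processing notes name featureCounts 1.5.0-p3 and the build mm10, and the study names DESeq2 for its comparison. The aligner and the use of strand are not given in the sources used here. A second deposited table holds the authors' own fold changes and p-values, and none of it was used, including 18 columns that give values by sample and 2 that give means by group.

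LPS was compared with control by edgeR 4.0.16 under R 4.3.3 (TMM, filterByExpr, quasi-likelihood test, prior count 0.125 for fold changes, no replicate term), with Benjamini-Hochberg adjustment over 12296 genes. The fit was run on simulated counts with known changes as a check. The standard error is the log2 fold change divided by the square root of F. CPM per kb divides CPM by the deposited gene length. A group with all libraries at or under 3 counts is not given a fold change, and reads without molecular identifiers make counting intervals cover counting error only. Member coordinates matched GENCODE M21 on GRCm38 for 9 of 9 genes. Alternatives were DESeq2 1.42.0, RLE factors, no filter, a mean of 10 counts, robust dispersion, glmTreat, a prior count of 2, a replicate block, protein-coding genes alone and libraries left out. Figures used matplotlib 3.10.9.

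The members, gene lists and tests were chosen with earlier results of these data known. Named genes are all members and, of both wider lists, all DEG and the 4 others with the lowest adjusted p, and the 3 genes nearest in pattern to each member called a DEG. Further genes are named for marker lists, liver-made genes, losses of calls, genes below the filter and the closing observations, after their values were seen. A gene of the list of other plasminogen genes is not reported here and is in none of its counts. Marker lists were written for microglia and macrophages, hepatocytes, endothelium, fibroblasts and pericytes, astrocytes, neurons, and megakaryocytes and platelets.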

Additional observations from a re-analysis of the deposited data

How the results depend on the processing

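*Plaur*, *F10* and *Plau* kept their direction and an adjusted p under 0.05 in every alternative except glmTreat at a log2 fold change of 1.5, which called 0 members higher and 0 lower and left *Plaur* (1.52), *F10* (1.22), *Plat* (1.08) and *Plau* (-0.24) with an adjusted p of 1. That test asks for a larger change by construction, and it called 183 DEG among all genes where the reported fit called 326. *Plat* was also lost with DESeq2 (1.08) and without control replicates 2 and 3 together (1.37), and the cause was not tested. With each library left out in turn, log2 fold changes ran from 1.48 to 1.53 for *Plaur*, from 0.95 to 1.2 for *Plat*, from 1.1 to 1.4 for *F10*, from -0.27 to -0.22 for *Plau* and from -0.13 to 0.0352 for *Plgrkt*, whose sign turned without LPS replicate 2. The count of members called DEG ran from 0 to 1 and was 0 without control replicates 2 and 3 together; 2 to 3 members were higher and 1 was lower in each such fit.

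Among the other plasminogen genes, 5 to 7 were higher and 0 to 1 lower with a library left out. Each such fit had 1 up-regulated DEG, while glmTreat called 0 higher and 0 up-regulated DEG. DESeq2, no filter, and no filter with robust dispersion (added after the data were seen) each called 1 lower, *Vtn*. Without control replicate 1 the 1 lower gene was *Itgav*. Among the coagulation genes, 2 to 4 were higher, 1 to 2 lower and 0 to 1 an up-regulated DEG with a library left out. Lower DEG were not counted here for this list. The added lower gene was *Fgb* in each of the 4 fits with 2, without control replicate 1 or any of the LPS replicates. The up-regulated DEG was *Serpind1*, without control replicate 3 or LPS replicate 1. No filter, alone or with robust dispersion, called 4 lower, adding *Fga*, *Fgb* and *Fgg*, and glmTreat called 0 in either direction. These liver-made genes have their counts in control replicates 2 and 3.

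Same-numbered libraries correlated in their deviations from group means by 0.138, 0.05 and 0.03 for replicates 1, 2 and 3. Replicate 1 was above the limit of 0.1 and the others were below it, so the numbers do not pair all libraries. Control replicate 3 correlated best with LPS replicate 2 (0.043). With the replicate block, the log2 fold changes were 1.52 for *Plaur*, -0.24 for *Plau*, 1.08 for *Plat*, 1.23 for *F10* and -0.05 for *Plgrkt*, with 3 members higher and 1 lower, and the list counts moved from 6 to 7 and from 3 to 4 higher genes, adding *Lrp1* and *Vwf*. Depth limits what can be said of *Serpine2* and *Serpinb2*, at or under 3 counts in every library, and of *F3* and *Thbd*, at no more than 6 and 4 counts.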

Other observations

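Several genes known best from liver, endothelium and platelets were counted in all 6 libraries of this microglial line, unlike the transcripts counted mostly in control replicates 2 and 3. *Vwf*, which encodes the platelet-binding von Willebrand factor, had 692 to 844 counts per library, at 43.5 ± 2.69 CPM in control and 49.1 ± 3.52 CPM in LPS cells (edgeR adjusted p = 0.0676, with a call as higher without LPS replicate 1). *F9*, the gene of coagulation factor IX, had 49 to 63 counts and did not pass the test (log2 fold change -0.12, SE 0.20, adjusted p = 0.698 by edgeR). *Pf4*, which encodes platelet factor 4, had 71 to 108 counts, whereas the platelet markers *Ppbp* and *Gp1bb* were at 0 in every library.

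*Tfpi*, the inhibitor of the tissue factor pathway, was lower in every LPS library than in every control library, at 12.6 ± 0.565 and 11.2 ± 0.19 CPM, but did not pass the test (log2 fold change -0.16, edgeR adjusted p = 0.248). *Ggcx*, the carboxylase that modifies vitamin K-dependent clotting factors such as factor X, did not pass it either (log2 fold change -0.04, SE 0.15, adjusted p = 0.859 by edgeR), at 10.8 ± 1.86 CPM in control and 10.5 ± 1.53 CPM in LPS cells.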
